A study of Mus musculus with 6 samples.

Results

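Semaphorins, plexins and neuropilins, the ligands and receptors of a major axon guidance system, were examined in the cerebral cortex of fetal male mice after maternal exposure to bisphenol A (BPA, a plastic monomer with weak estrogen-like activity). Members were chosen by gene symbol, as the semaphorin genes of classes 3 to 7, the plexin genes of types A to D, and Nrp1 and Nrp2. The count table held 31 such genes among 45583 rows, namely 20 semaphorins, 9 plexins and 2 neuropilins. Of these, 30 had enough counts to be tested among 13741 tested genes, and Plxnb3 did not. Of the 30 tested members, 0 passed the test between BPA and vehicle, as did 0% of all genes tested, and the largest differences were in scarce class 3 ligands with wide intervals.

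Semaphorins are secreted, membrane-spanning or lipid-anchored proteins that steer growing axons and migrating neurons, most often by repulsion. Plexins are their signaling receptors and act on the cytoskeleton through small GTPases, while neuropilins bind the secreted class 3 ligands and pair with type A plexins. In the fetal cortex this system is known for guiding callosal and corticofugal axons, orienting pyramidal neurons and directing interneurons past the striatum.

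Dams of the Cyp19-EGFP strain, a transgenic line in which a reporter is driven by the regulatory region of the aromatase gene, received BPA at 50 µg/kg or peanut oil as vehicle from GD10.5 to GD14.5 (gestational day). Injection was subcutaneous according to the study's methods. Cortex was taken at GD15.5 from 3 male fetuses per group, which the labels list as WT for genotype and SRY + in both groups, and each fetus gave 1 library of total RNA. The labels identify fetuses but neither dams nor litters, so p-values measure the spread between these fetuses, some of which may be littermates. Total counts ran from 3444601 in BPA replicate 3 to 7180835 in vehicle replicate 2, so that 3 counts, the floor below which a level was treated as not detectable, corresponded to 0.875 and 0.422 CPM (CPM being counts scaled to library size), counting error only.

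The labelled tissue was checked against markers. All 11 dorsal pallium markers were expressed, with Tbr1, a marker of deep-layer neurons, between 543 and 678 CPM and Neurod6, a marker of excitatory neurons, between 634 and 855 CPM. The summed level of these 11 markers was 3270 to 3827 CPM in vehicle and 3394 to 3808 CPM in BPA. Ventral telencephalon markers were also present in every library and were lower in BPA for 15 of 15 genes, with sums of 1260 to 1425 CPM in vehicle and 1081 to 1196 CPM in BPA. Of these, 9 had an unadjusted p under 0.05 and 12 did not overlap between groups, against 1.18% and 3.56% of all genes tested in that direction, although this list was chosen with earlier results of these libraries known. Choroid plexus markers summed to 229 CPM in vehicle replicate 2 and 365 CPM in BPA replicate 2, of which the transthyretin gene Ttr made up 195 and 308 CPM, and to at most 19.6 CPM in each other library. Summed markers of endothelium (206 to 208 CPM in vehicle and 197 to 216 CPM in BPA) and of microglia (55.7 to 72.2 and 62.2 to 67.4 CPM) overlapped between groups, as did those of meninges and pericytes (116 to 188 and 121 to 166 CPM), erythroid cells (277 to 594 and 327 to 410 CPM), Cajal-Retzius cells (529 to 588 and 583 to 683 CPM) and oligodendrocyte precursors (83.1 to 95.6 and 66.0 to 87.8 CPM). Tested markers higher and lower in BPA numbered 10 and 1 for dorsal pallium, 6 and 4 for endothelium and 3 and 5 for microglia. They numbered 4 and 4 for meninges and pericytes, 2 and 1 for choroid plexus and 1 and 4 for erythroid cells. They numbered 4 and 2 for Cajal-Retzius cells and 0 and 5 for oligodendrocyte precursors, where 50.5% of all genes tested were higher. Single markers at an unadjusted p under 0.05 in these lists were Olig1 and Olig2 of oligodendrocyte precursors and Hba-a1 of erythroid cells. All 3 were lower in BPA, against 1.18% of all genes tested that passed in that direction. Groups did not overlap for Trp73 of Cajal-Retzius cells (higher) and Olig2 (lower), against 6.75% of all genes tested. Of the defining markers, Twist1 of meninges had at most 3 counts in any library, and Kl of choroid plexus and Hba-a2 of erythroid cells at most 4. The part of any of these cell types in the values of semaphorin, plexin and neuropilin genes was not tested. In bulk tissue, fewer cells of a type and less RNA per cell cannot be told apart.

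Members ranged from an average of 965 CPM for Plxna2 to levels at or near the floor. To compare genes, CPM were divided by the kilobases of annotated exon sequence (CPM per kb, GENCODE M21 on GRCm38) and averaged over the 6 libraries. Of the 30 tested members, 26 averaged more CPM than the median tested gene, which was at 28.7 CPM. That comparison took no account of exon length, which ran from 3.30 to 18.7 kb among members. Among the receptors in this set, plexins held the highest levels, and Plxna3 led with 63.8 CPM per kb, followed by Plxnb2 with 57.0 and Plxna2 with 56.2. Plxnc1, at 11.0 CPM per kb, and Plxnb3 lay below both neuropilins. Among the ligands, Sema4g was at 36.1, Sema4c at 29.2 and Sema6b at 24.9 CPM per kb. Nrp2 was at 20.1 and Nrp1 at 19.2 CPM per kb. At the other end were Sema3g at 0.843, Sema3e at 0.761, Sema3b at 0.375 and Sema3d at 0.260 CPM per kb, and Plxnb3, at or near the floor in several libraries, at 0.0963.

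**Figure D1:**
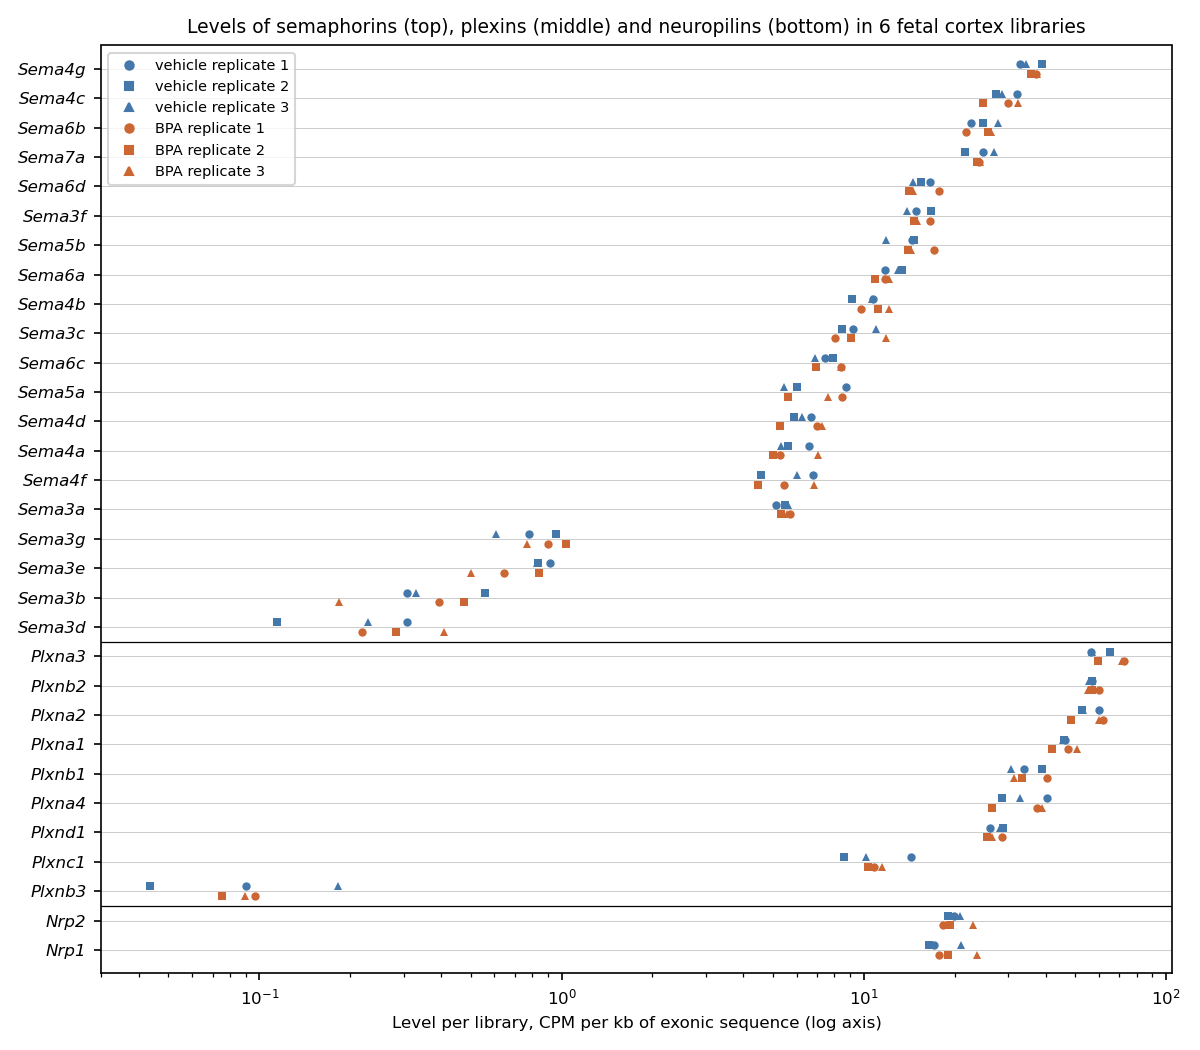
Level of each member in each library, as CPM per kb of exonic sequence on a log axis, with 1 point per library, blue for vehicle and orange for BPA, and the shape giving the replicate. Blue and orange points overlap for every member, and the 5 lowest members, Sema3g, Sema3e, Sema3b, Sema3d and Plxnb3, lie apart from the rest.

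Sequences upstream of 4 genes are shown to set an abundant and a scarce gene of each family side by side. They are the 250 bases before the annotated start (RefSeq, GRCm38.p6) of the highest and lowest plexin and semaphorin among members with a single such window that held fewer than 30 bases of annotated exon. Each is printed 5′ to 3′ on the gene's own strand, with CG dinucleotides, the sites of DNA methylation that cluster in CpG islands, in capitals.
Plxna3 (chrX:74328816-74329065, plus strand): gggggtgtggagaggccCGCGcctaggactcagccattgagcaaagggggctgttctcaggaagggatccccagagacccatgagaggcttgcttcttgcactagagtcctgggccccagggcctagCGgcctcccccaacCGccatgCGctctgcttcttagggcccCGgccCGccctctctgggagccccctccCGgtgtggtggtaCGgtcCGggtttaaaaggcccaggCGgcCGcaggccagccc
Plxnb3 (chrX:73756853-73757102, plus strand): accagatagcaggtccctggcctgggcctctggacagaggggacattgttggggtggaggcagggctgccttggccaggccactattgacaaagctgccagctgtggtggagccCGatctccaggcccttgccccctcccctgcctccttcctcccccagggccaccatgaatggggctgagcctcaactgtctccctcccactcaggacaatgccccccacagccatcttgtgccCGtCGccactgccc
Sema7a (chr9:57939862-57940111, plus strand): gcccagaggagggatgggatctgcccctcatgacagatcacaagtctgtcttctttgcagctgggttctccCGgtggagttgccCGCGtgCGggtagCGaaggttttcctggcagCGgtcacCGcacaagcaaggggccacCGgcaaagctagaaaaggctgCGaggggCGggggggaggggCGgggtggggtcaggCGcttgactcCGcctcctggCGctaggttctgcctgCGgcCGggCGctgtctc
Sema3d (chr5:12382916-12383165, plus strand): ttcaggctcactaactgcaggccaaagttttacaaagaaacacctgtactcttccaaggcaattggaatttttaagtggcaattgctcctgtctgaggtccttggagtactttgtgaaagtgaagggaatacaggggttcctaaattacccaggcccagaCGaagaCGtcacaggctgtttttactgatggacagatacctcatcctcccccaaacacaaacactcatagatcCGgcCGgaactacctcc
The window of Plxna3 held 12 CG dinucleotides, and that of Plxnb3, the least abundant member, held 3 although 65.2% of its bases were G or C. The window of Sema7a held 17 and that of Sema3d held 4, with G or C at 46.8% of bases.

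RefSeq windows were matched by symbol for 26 members, which had 37 windows because several have more than 1 start. No window was matched for Plxna1, Plxna4, Sema3b, Sema3f and Sema6a. The 37 windows held a median of 13 CG dinucleotides, against 6 over 32851 windows of all genes, and ranged from 0 in a second window of Sema6c to 39 in that of Sema3c. A high count did not mark the most abundant genes alone, since Sema3c was at 9.61 CPM per kb, and Sema3a, with 2 CG dinucleotides, was at 5.47. The letters GGGCGG, the core recognised by Sp1-type factors, occurred on either strand in 27 of 37 windows (73.0%), against 32.7% of all windows. TATAAA occurred on either strand in 0 of 37, against 12.4% of all windows. BPA can bind estrogen receptors, so the palindromic estrogen response element, GGTCA and TGACC separated by 3 bases of any kind, was searched in the 250 bases before and 50 bases after each start. It was found in 0 of the 37 windows and in 23 of 32851 windows (0.0700%), and its absence from these short windows says nothing about binding elsewhere. The windows were described here with no test, and a match is not a bound site.

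**Figure D2:**
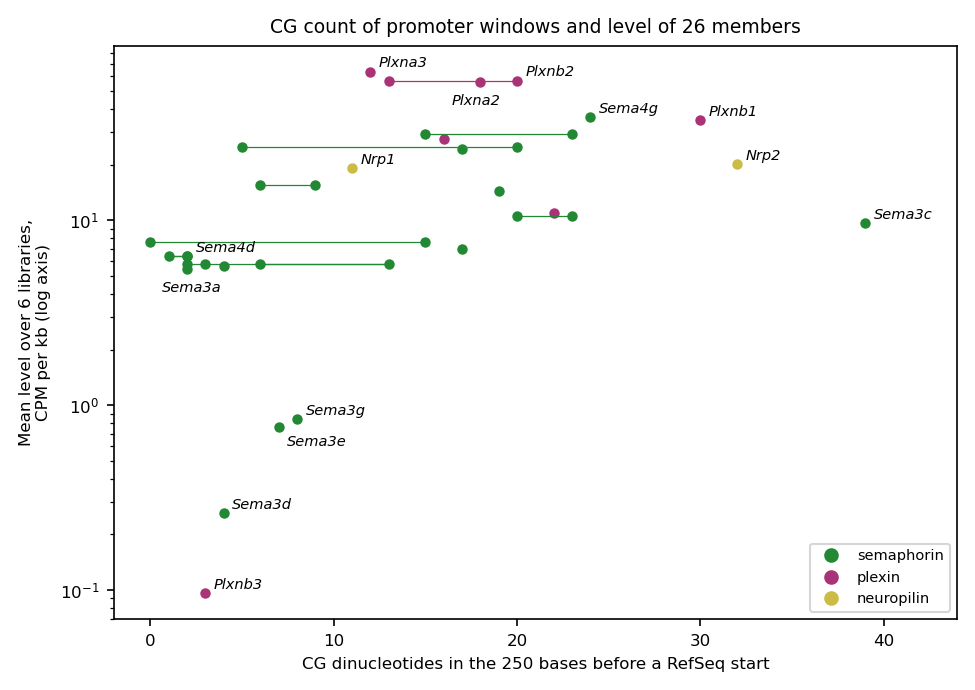
Number of CG dinucleotides in the 250 bases before each RefSeq start (x axis) and mean level over 6 libraries in CPM per kb on a log axis (y axis) for 26 members, colored by role, with a line joining several windows of 1 gene. Plxnb3 and Sema3d, the lowest of these genes, have 3 and 4, while Sema3c has the highest number, 39, at a middling level.

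The comparison of interest asked whether maternal BPA altered the guidance system. Of the 30 tested members, 0 had an adjusted p below 0.1 when tested by edgeR's quasi-likelihood method with Benjamini-Hochberg adjustment, as did 0 of all 13741 genes (0%), and the adjusted p rounded to 1 for every tested member. An unadjusted p under 0.05 was reached by 0 members, where 302 of all genes (2.20%) were below it. The 3 BPA libraries did not lie wholly above or below the 3 vehicle libraries for any tested member, whereas 928 of all genes (6.75%) had such separated groups. Of all genes tested 50.5% were higher in BPA, and by direction alone 19 members (63.3%) were higher and 11 lower. The median of their log2 fold changes was 0.02, against 0.00 over all genes tested. Log2 fold changes ranged from -0.34 to 0.42, and 28 of 30 were smaller than 0.25 in size. Among members averaging at least 10 CPM the median size of the log2 fold change was 0.035, where that of the 10010 genes above this limit was 0.072. Only the lower limit was shared, since 22 members averaged at least 50 CPM, and no comparison with genes matched in level was made.

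**Figure D3:**
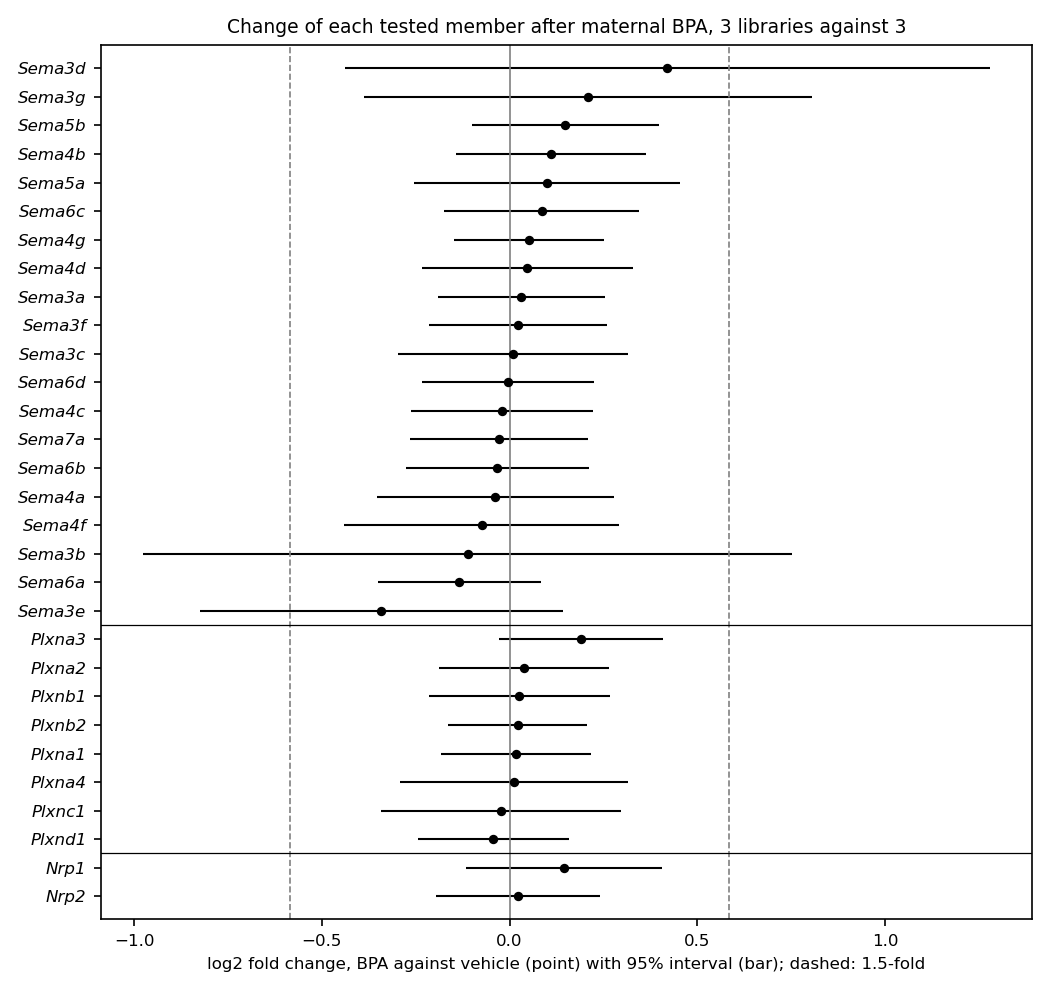
Log2 fold change of BPA against vehicle for each of the 30 tested members (points) with its 95% interval (bars), grouped into semaphorins, plexins and neuropilins from top to bottom, with dashed lines at a 1.5-fold change. Every interval includes 0, and those of Sema3b, Sema3d, Sema3e and Sema3g, which have few counts, pass a dashed line.

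Between these fetuses, the intervals were narrow for the abundant members. Litters are not known, so the intervals, like the p-values, measure only the spread between these fetuses. For all 22 members averaging at least 50 CPM the 95% interval lay inside a 1.5-fold change either way, with bounds between -0.35 and 0.45 on the log2 scale. The same held for 26 of the 30 tested members, and 29 had intervals inside a 2-fold change, the exception being Sema3d. Changes that lie inside an interval could not be told from no change at this depth and number of fetuses.

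Among the class 3 semaphorins, which are secreted, Sema3e and Sema3d had the largest differences. Sema3e (chr5:14025276-14256689, plus strand), a ligand that binds Plxnd1 without needing a neuropilin, was at 8.53, 7.74 and 7.69 CPM in vehicle and at 5.97, 7.80 and 4.67 CPM in BPA. BPA replicates 1 and 3 were below all vehicle libraries, but BPA replicate 2 was above 2 of them. The vehicle mean was 7.99 CPM ± 0.471 (SD, n = 3), and the BPA mean was 6.15 CPM ± 1.57 (SD, n = 3). Its log2 fold change was -0.34 with an SE of 0.228 and a 95% interval from -0.83 to 0.14, and edgeR's quasi-likelihood test gave an unadjusted p of 0.154. These levels rested on 16 to 58 counts per library.

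Sema3d (chr5:12383385-12588948, plus strand), a secreted guidance cue whose promoter window is shown above, was at 2.65, 0.985 and 1.97 CPM in vehicle and at 1.88, 2.44 and 3.5 CPM in BPA. The groups overlapped, with vehicle replicate 1 above both BPA replicates 1 and 2. Its log2 fold change was 0.42 with an SE of 0.404 and an interval from -0.44 to 1.28 (unadjusted p = 0.315), from 7 to 18 counts per library. Sema3b, with 3 to 19 counts, and Sema3g, with 12 to 31, were also imprecise, at log2 fold changes of -0.11 (SE 0.407) and 0.21 (SE 0.281).

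The abundant class 3 ligands had small log2 fold changes. Sema3a, the classical repellent of cortical axons that acts through Nrp1, was at 71.3, 76.0 and 77.9 CPM in vehicle and 79.1, 73.6 and 77.3 CPM in BPA. These 6 values had a coefficient of variation (CV) of 3.85%, and the log2 fold change was 0.03 (SE 0.105). Sema3f, a repellent that signals through Nrp2, ranged from 72.6 to 86.7 CPM and had a log2 fold change of 0.02, and Sema3c, a cue for callosal axons, from 57.5 to 84.9 CPM with 0.01. Summed over its 7 members, class 3 had a vehicle mean of 237 CPM ± 6.37 (SD, n = 3) and a BPA mean of 240 CPM ± 10.9 (SD, n = 3), and 5 members were higher and 2 lower.

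Class 4 semaphorins span the membrane and bind chiefly type B plexins. Sema4g (chr19:44989101-45003397, plus strand), the most abundant ligand per kb, was at 285, 336 and 299 CPM in vehicle and 321, 311 and 323 CPM in BPA. The 3 BPA values lay within the vehicle range, and the log2 fold change was 0.05 (SE 0.0938). Sema4c (chr1:36548639-36558349, minus strand), a Plxnb2 ligand, was at 148, 125 and 132 CPM in vehicle and 138, 114 and 149 CPM in BPA, a log2 fold change of -0.02 (SE 0.114). BPA held both its lowest and its highest value. The remaining class 4 genes were Sema4a (27.1 to 38.2 CPM), Sema4b (51.8 to 68.6 CPM), Sema4d (40.5 to 56.0 CPM) and Sema4f (23.6 to 36.2 CPM), with log2 fold changes of -0.04, 0.11, 0.05 and -0.07. Sema4d is the ligand of Plxnb1, and the class as a whole had 3 members higher and 3 lower.

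Both class 5 semaphorins, which carry thrombospondin-type repeats, were higher on average in BPA without passing the test. Sema5b (chr16:35541145-35664732, plus strand) was at 103, 104 and 83.8 CPM in vehicle and 121, 99.3 and 102 CPM in BPA. Only BPA replicate 1 exceeded every vehicle library, and vehicle replicate 3 was below all others. Its log2 fold change was 0.15 with an SE of 0.117 and an interval from -0.10 to 0.40 (unadjusted p = 0.225). Sema5a varied most among libraries of all members averaging at least 10 CPM, with a CV of 21.1%. Its values were 164, 112 and 102 CPM in vehicle and 158, 105 and 143 CPM in BPA, so that vehicle replicate 1 and BPA replicate 1 were the highest, and the log2 fold change was 0.10 (SE 0.167). When vehicle replicate 1 was left out the log2 fold change was 0.33, and edgeR's quasi-likelihood test gave an unadjusted p of 0.0378 that rose to 0.999 after Benjamini-Hochberg adjustment.

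Sema6a (chr18:47235598-47368870, minus strand), a membrane-bound ligand of Plxna2 and Plxna4, was the lowest-p member of class 6, with 103, 117 and 114 CPM in vehicle and 104, 95.4 and 106 CPM in BPA. Vehicle replicates 2 and 3 were above all BPA libraries, while vehicle replicate 1 lay among them. Its log2 fold change was -0.13 with an SE of 0.103 and an interval from -0.35 to 0.08 (unadjusted p = 0.212). Sema6b (chr17:56123085-56140343, minus strand), a ligand of type A plexins, was at 90.0, 98.8 and 111 CPM in vehicle and 86.4, 102 and 104 CPM in BPA, with a log2 fold change of -0.03 (SE 0.115). Its groups covered nearly the same range. Sema6c ranged from 41.0 to 49.9 CPM and Sema6d, a ligand of Plxna1, from 150 to 187 CPM, with log2 fold changes of 0.09 and -0.0049. Sema7a (chr9:57940112-57962865, plus strand), which is held in the membrane by a lipid anchor and binds Plxnc1 and an integrin, was between 71.5 and 89.1 CPM with a log2 fold change of -0.03. Its 3 BPA libraries were tightly grouped at 79.1 CPM ± 1.01 (SD, n = 3), inside the range of the vehicle libraries, which averaged 80.9 CPM ± 8.86 (SD, n = 3).

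Type A plexins, the partners of neuropilins and the direct receptors of class 6 semaphorins, all had a small positive log2 fold change. Plxna3 (chrX:74329066-74344689, plus strand) had the smallest p-value of all members. It was at 446, 515 and 448 CPM in vehicle and 572, 470 and 565 CPM in BPA. BPA replicates 1 and 3 exceeded all vehicle libraries, and BPA replicate 2 fell between them. The means were 469 CPM ± 39.1 (SD, n = 3) and 536 CPM ± 57.0 (SD, n = 3). The log2 fold change was 0.19 with an SE of 0.103 and an interval from -0.03 to 0.41, and its unadjusted p, 0.0850 by edgeR's quasi-likelihood test, placed the gene 596th among all genes tested. Over the omission of each library in turn the log2 fold change of Plxna3 ran from 0.14 to 0.27. Without BPA replicate 2 it was 0.27 with an unadjusted p of 0.0185, and without vehicle replicate 2 it was 0.26 with an unadjusted p of 0.0324. The other 4 omissions gave unadjusted p-values from 0.199 to 0.254. Under the first 2 omissions the Benjamini-Hochberg adjusted p from edgeR's quasi-likelihood test stayed at 0.995 and 0.949.

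The other type A plexins had smaller differences. Plxna2 (chr1:194618218-194816869, plus strand), the member with the most counts, was at 1036, 905 and 915 CPM in vehicle and 1065, 834 and 1035 CPM in BPA, with a log2 fold change of 0.04 (SE 0.107). BPA replicate 2 was the lowest library for Plxna2. It was also the lowest for Plxna1 (381 to 458 CPM, log2 fold change 0.02) and for Plxna4 (374 to 571 CPM, log2 fold change 0.01), but not for Plxna3. Plxna1 shares 7.06% of its 50-base transcript words with other genes, mostly with the opposite-strand gene Gm26811, which had 6 to 28 counts per library.

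Plxnb2 (chr15:89155549-89180788, minus strand), a type B plexin of neural progenitors and migrating neurons, was the steadiest member, with a CV of 2.91%. It was at 439, 440 and 431 CPM in vehicle and 464, 439 and 427 CPM in BPA. BPA held both the highest and the lowest value, and the log2 fold change was 0.02 (SE 0.0873). Plxnb1 ranged from 295 to 388 CPM, and its log2 fold change was 0.03. Plxnb3 had 2 to 6 counts per library, at or near the floor, and no fold is given for it. The single type C and type D plexins were lower on average, with log2 fold changes of -0.02 for Plxnc1 (71.9 to 119 CPM) and -0.04 for Plxnd1 (186 to 212 CPM), the latter known from vessels and from corticofugal and striatal neurons.

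Nrp1 (chr8:128358604-128503363, plus strand), the receptor for Sema3a and also for vascular endothelial growth factor, was at 168, 161 and 205 CPM in vehicle and 173, 187 and 232 CPM in BPA. The libraries of both groups were interleaved, with BPA replicate 3 and vehicle replicate 3 the highest. Its log2 fold change was 0.14 with an SE of 0.123 and an interval from -0.12 to 0.41 (unadjusted p = 0.256). Nrp2 (chr1:62703285-62818695, plus strand), the receptor for Sema3f that is also found on interneurons, was at 235, 225 and 247 CPM in vehicle and 217, 229 and 273 CPM in BPA. BPA held both its lowest and highest value, and its log2 fold change was 0.02 (SE 0.103).

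The order of levels per kb was read library by library. Sema4g was above Sema4c in 6 of 6 libraries, and Plxna2 above Plxna1 and Plxna1 above Plxnb1 in 6 of 6. Several neighbors did not differ beyond their spread over libraries. Plxna3 exceeded Plxnb2 in 5 of 6 libraries, Plxnb2 exceeded Plxna2 in 3 of 6, and Plxnb1 exceeded Plxna4 in 3 of 6. Nrp2 exceeded Nrp1 in 4 of 6 libraries, with a ratio from 0.974 to 1.16. Among ligands, Sema6b exceeded Sema7a in 4 of 6 and Sema6d exceeded Sema3f in 3 of 6.

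Known ligand and receptor pairs kept their relation across libraries. The ratio of Sema7a to Plxnc1 per kb was between 1.74 and 2.65, the ligand being the more abundant in 6 of 6 libraries. The reverse held for Sema3e, whose level per kb was between 0.0189 and 0.0351 of that of Plxnd1. Sema3a was between 0.235 and 0.333 of Nrp1, Sema3f between 0.650 and 0.904 of Nrp2, and Sema4d between 0.152 and 0.232 of Plxnb1. These ratios were measured in whole tissue and do not say which cells held either transcript.

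Summed by role, plexins made up 62.0% to 64.8% of the CPM of all members in each library, semaphorins 28.5% to 29.7% and neuropilins 6.75% to 8.71%. The summed plexin level had a vehicle mean of 3382 CPM ± 151 (SD, n = 3) and a BPA mean of 3489 CPM ± 349 (SD, n = 3). Semaphorins summed to 1570 CPM ± 35.1 (SD, n = 3) and 1597 CPM ± 100.3 (SD, n = 3), and neuropilins to 413 CPM ± 34.3 (SD, n = 3) and 437 CPM ± 60.1 (SD, n = 3). In each role the difference between groups was smaller than the SD in BPA, and that SD was larger in BPA than in vehicle.

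The spread within BPA followed particular libraries. Over the 26 members averaging at least 10 CPM, BPA replicate 3 held the highest of the 6 values for 9 members and BPA replicate 1 for 8. BPA replicate 2 held the highest value for 0 members and the lowest for 10, among them Plxna1, Plxna2 and Plxna4. BPA replicate 3 was the shallowest library. Choroid plexus markers summed to 365 CPM in BPA replicate 2, but also to 229 CPM in vehicle replicate 2. Vehicle replicate 2 held the highest of the 6 values for 4 members and the lowest for 4. It was the lowest vehicle library for Plxna2 (905 CPM) and Plxna4 (404 CPM), though not for Plxna1. The part of depth or of choroid plexus in these values was not tested. The CV over the 6 libraries had a median of 9.68% across these 26 members. It was more than 2 times the CV that counting error alone would give for 16 of the 30 tested members.

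**Figure D4:**
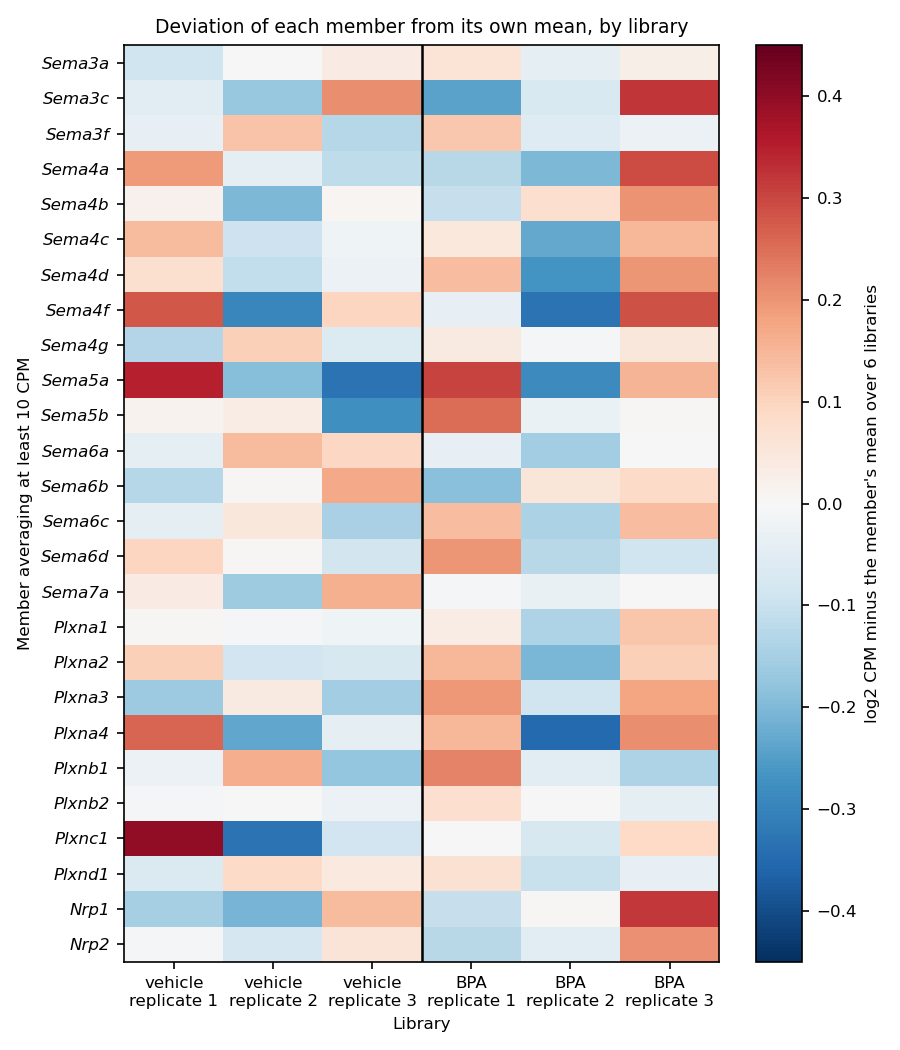
Difference of each member's log2 CPM in a library from its own mean over the 6 libraries, for the 26 members averaging at least 10 CPM, with red above and blue below the mean and a line between vehicle and BPA. The column of BPA replicate 2 is mostly blue and that of BPA replicate 3 mostly red, while Plxnb2 and Sema3a are pale throughout.

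The genes that work with this system were examined as a list of 54 co-receptors, GTPases, kinases and processing enzymes, all of which were tested. An unadjusted p under 0.05 was reached by 0 of 54, against 2.20% of all genes tested. The adjusted threshold was passed by 0, as it was by 0% of all genes tested. By direction, 50.5% of all genes tested were higher in BPA. Of 11 co-receptors and other semaphorin receptors, 4 were higher and 7 lower. Erbb2, a receptor tyrosine kinase that associates with type B plexins, was at 15.9, 18.6 and 15.8 CPM in vehicle and 22.8, 23.1 and 15.46 CPM in BPA. BPA replicates 1 and 2 were above all vehicle libraries and BPA replicate 3 was below them, and the log2 fold change was 0.31 (SE 0.169, unadjusted p = 0.0851).

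Rras, a small GTPase inactivated by the GTPase-activating domain of plexins, had the smallest p-value of the list. It was at 3.24, 4.93 and 2.76 CPM in vehicle and 1.57, 2.93 and 2.33 CPM in BPA, from 8 to 35 counts per library. BPA replicate 2 was above vehicle replicate 3, so the groups overlapped, and the log2 fold change was -0.71 (SE 0.347, unadjusted p = 0.0592). Among 13 kinases and cofilin, 3 were higher and 10 lower. Pak3 and Pak1, kinases downstream of Rac that act on the cytoskeleton, had the smallest p-values of these. Pak3 was at 217, 168 and 184 CPM in vehicle and 166, 163 and 191 CPM in BPA, a log2 fold change of -0.14 (SE 0.111, unadjusted p = 0.241). Pak1 was at 248, 223 and 246 CPM in vehicle and 217, 232 and 218 CPM in BPA, a log2 fold change of -0.10 (SE 0.0923, unadjusted p = 0.290). For both, the BPA and vehicle libraries overlapped.

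All 5 collapsin response mediator proteins, cytosolic mediators of Sema3a signaling, were lower on average, with log2 fold changes from -0.06 for Dpysl3 to -0.0020 for Dpysl4. Their summed level was 6763 to 7461 CPM in vehicle and 6597 to 7476 CPM in BPA. Of 5 MICAL proteins and adaptors, 3 were higher and 2 lower, and Mical2, an oxidase that acts on actin, was at 17.6, 24.6 and 23.1 CPM in vehicle and 25.9, 20.5 and 29.2 CPM in BPA. Its groups overlapped, and the log2 fold change was 0.19 (SE 0.167, unadjusted p = 0.264). Of 4 proprotein convertases, which cut class 3 semaphorins, 3 were higher and 1 lower. Pcsk7 was the 1 gene of the 54 whose groups did not overlap, with a vehicle mean of 41.0 CPM ± 1.34 (SD, n = 3) and a BPA mean of 44.2 CPM ± 0.764 (SD, n = 3), which is a smaller share of the list than the 6.75% of all genes.

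Sequence sharing was limited. Of the 31 members, 24 had no other annotated gene overlapping their exons, and 29 shared less than 5% of their 50-base transcript words with other genes. The exceptions were Plxna1 and Sema4c, the latter at 5.93%, mostly with the opposite-strand gene D430040D24Rik, which had 17 to 32 counts per library. Whether the counting used strand is not stated, so a small part of the counts of Plxna1 and Sema4c could belong to these neighbors.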

How the data were processed

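The data were read counts per gene, deposited by the authors for 6 libraries. According to the study's methods and the submitters' processing notes, strand-specific libraries gave single-end reads 50 bases long that were aligned to GRCm38 with TopHat2 2.0.14, assembled with StringTie 1.2.4 and counted with featureCounts on GENCODE models. The counting options for strand and for reads with several alignments are not given in the sources used here. The study's results section gives a later fetal age than the labels and methods do.

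Groups came from the treatment labels. Replicates were numbered in accession order, which pairs no samples. Members and gene lists were chosen with earlier results of these data known. In R 4.3.3, edgeR 4.0.16 was used to keep genes (filterByExpr, minimum count 10, minimum total 15), which left 99.7% of counts, to scale libraries by TMM and to run the quasi-likelihood test without covariates on all 13741 genes. P-values were adjusted by Benjamini-Hochberg over all genes, with a threshold of 0.1. SEs are those implied by the test statistic, and intervals are at 95%. CPM used TMM-scaled totals. The test was checked on simulated data. A marker gene and the counts of a partner group are not reported here. Full values are given for the 6 members with the smallest unadjusted p, the 3 ligands and 3 plexins with the highest level per kb, both neuropilins and the 5 partner genes with the smallest p, and some others were added after their values were seen. Coordinates are from GENCODE M21 on GRCm38, and upstream windows from RefSeq on GRCm38.p6. Alternatives used DESeq2 1.42.0, limma-voom (limma 3.58.1), edgeR's exact test, other scalings and filters, and omission of each library.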

Additional observations from a re-analysis of the deposited data

How the results depend on the processing

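In all 13 alternatives, 0 members passed the adjusted threshold of 0.1. The number of genes past it was 3 with DESeq2's Wald test, 2 with edgeR's exact test, 19 without a filter on low counts and 0 to 1 when each library was left out. Members at an unadjusted p under 0.05 numbered 0 to 2 when a library was left out, namely Sema5a without vehicle replicate 1, Plxna3 without vehicle replicate 2, and Plxna3 and Sema3e without BPA replicate 2, the p of Sema3e being 0.0457. Partner genes numbered 1 without the filter (Rras) and 0 to 1 when a library was left out (Erbb2 without vehicle replicate 2 or BPA replicate 3, Rras without vehicle replicate 3 or BPA replicate 2). The share of all genes at an unadjusted p under 0.05 was not taken for these alternatives, so the counts of members and partner genes have no background beside them. The cause of these shifts was not tested. The median log2 fold change of the members ran from -0.01 without BPA replicate 1 to 0.06 without BPA replicate 2.

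Direction was kept in all 13 alternatives by 11 of 30 members (Nrp1, Plxna3, Plxnd1, Sema3d, Sema3e, Sema3g, Sema4b, Sema4g, Sema5b, Sema6a and Sema6c), although their sizes moved as each library was left out, over 0.017 to 0.26 for Nrp1, 0.14 to 0.27 for Plxna3, -0.092 to -0.0063 for Plxnd1, 0.081 to 0.80 for Sema3d, -0.55 to -0.22 for Sema3e, 0.074 to 0.39 for Sema3g, 0.041 to 0.19 for Sema4b, 0.0016 to 0.13 for Sema4g, 0.052 to 0.20 for Sema5b, -0.19 to -0.090 for Sema6a and 0.032 to 0.18 for Sema6c. With limma-voom the log2 fold change turned to 0.0054 for Plxnc1 and -0.0096 for Sema3c. When each library was left out, the log2 fold change changed sign for 19 members, over ranges of -0.078 to 0.089 for Nrp2, -0.043 to 0.085 for Plxna1, -0.028 to 0.14 for Plxna2, -0.096 to 0.17 for Plxna4, -0.089 to 0.12 for Plxnb1, -0.013 to 0.048 for Plxnb2, -0.18 to 0.21 for Plxnc1, -0.0048 to 0.059 for Sema3a, -0.36 to 0.24 for Sema3b, -0.15 to 0.13 for Sema3c, -0.037 to 0.098 for Sema3f, -0.18 to 0.058 for Sema4a, -0.098 to 0.082 for Sema4c, -0.031 to 0.18 for Sema4d, -0.23 to 0.068 for Sema4f, -0.035 to 0.33 for Sema5a, -0.10 to 0.051 for Sema6b, -0.12 to 0.056 for Sema6d and -0.11 to 0.043 for Sema7a. No paired analysis was possible because the labels carry no replicate numbers shared between groups.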
